A study of Mus musculus with 6 samples.

Results

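The 10 genes described here are Hmox1, Fth1, Ftl1, Tfrc, Slc40a1, Slc11a1, Nqo1, Gclc, Gclm and Txnrd1, which break down heme, store or move iron, or belong to the antioxidant program driven by the transcription factor NRF2. They were chosen by their function, with earlier results of these data known, and make up 10 of the 18089 genes in the deposited table. RNA was taken from the gastrocnemius, a calf muscle, of male C57BL/6 mice aged 8 to 10 weeks, 7 days after hindlimb ischemia (HLI) was produced by surgery in every animal. The groups were 3 Gpr174-/Y mice, which lack the X-linked lysophosphatidylserine receptor GPR174 in every cell of the body, and 3 wild-type (WT) mice, with no sham-operated or non-ischemic muscle among the libraries. The comparison asks how the loss of GPR174 altered the RNA of these genes in whole recovering muscle.

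Dying muscle fibres and trapped red blood cells release heme, and macrophages that clear them break it down with heme oxygenase-1, the product of Hmox1. The freed iron is held in ferritin, a shell built of heavy (Fth1) and light (Ftl1) chains, or leaves the cell through ferroportin (Slc40a1), while transferrin receptor 1 (Tfrc) brings iron in and NRAMP1 (Slc11a1) moves it out of the phagosome. NRF2 is held down by KEAP1 and opposed by the heme-sensing repressor BACH1, and it drives Hmox1, both ferritin genes and the enzymes of NADPH-dependent reduction and glutathione synthesis.

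Several of these transcripts are also under control of iron regulatory proteins, which bind a hairpin called the iron-responsive element and block translation when it lies in the 5′ UTR or protect the transcript from decay when it lies in the 3′ UTR. The hairpins are shown because they divide the iron genes by the level at which iron acts on them. A pattern of a C bulge, 5 bases, the loop CAGTG followed by A, C or T, and 5 bases able to pair with the first 5 was searched for in the UTRs of GENCODE M21 (genome build GRCm38). It was found in the 5′ UTR of 3 of the 10 genes and the 3′ UTR of 1 of the 10, against 0.102% and 0.468% of all genes with an annotated UTR of that kind. Each match is given 5′ to 3′ with the loop in capitals:

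Fth1, 5′ UTR, chr19:9982733-9982759, plus strand: uccugcuucaaCAGUGCuugaacggaa

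Ftl1, 5′ UTR, chr7:45459780-45459806, minus strand: ucuugcuucaaCAGUGUuugaacggaa

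Slc40a1, 5′ UTR, chr1:45925466-45925492, minus strand: aacuucagcuaCAGUGUuagcuaaguu

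Tfrc, 3′ UTR, match 1, chr16:32631220-32631246, plus strand: auuaucggaagCAGUGCcuuccauaau

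Tfrc, 3′ UTR, match 2, chr16:32631599-32631625, plus strand: auuaucgggagCAGUGUcuuccauaau

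Tfrc, 3′ UTR, match 3, chr16:32631664-32631690, plus strand: uauaucggagaCAGUGAucuccauaug

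Tfrc, 3′ UTR, match 4, chr16:32631711-32631737, plus strand: auuaucgggaaCAGUGUuucccauaau

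The hairpins of Fth1, Ftl1 and Slc40a1 are known to act on translation, which RNA sequencing does not measure, whereas those of Tfrc are known to act on RNA stability. A match is a description of sequence only, and no binding was measured.

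Total counts ranged from 18417077 to 18695013 in WT and from 19173036 to 19394469 in Gpr174-/Y libraries. Gpr174 itself was close to the limit of detection, taken as 3 counts, with 8, 2 and 5 counts in WT muscles and 1, 0 and 0 in knockout muscles, an order that follows the labels. Values are CPM, counts relative to library size, after TMM scaling, which sets the middle of the gene distribution level between libraries. edgeR's quasi-likelihood F-test compared the genotypes in 14395 genes. Counts scaled by the library total alone moved the median log2 fold change of all genes from 0.004 to 0.277, so changes on that scale are read against 0.277. Replicate 2 lay between replicates 1 and 3 for 71.7% of tested genes in WT and 64.1% in Gpr174-/Y, and for 8 of the 10 genes in each genotype. For any 1 gene, independent replicates would each be equally likely to be the middle one. The spread within a genotype may therefore be understated, which limits all p-values given here, and the reason was not tested. With only replicates 1 and 3 of each genotype, none of the 10 genes and none of all tested genes passed the edgeR threshold, with 3 of the 10 at an unadjusted p under 0.05.

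All 10 genes passed the filter on low counts, and 8 of them differed between genotypes at an adjusted p under 0.05. Hmox1, Ftl1, Slc11a1, Txnrd1 and Gclc were higher in Gpr174-/Y muscle and Tfrc, Nqo1 and Gclm were lower, while Fth1 and Slc40a1 did not pass. Among all tested genes 27.0% were called higher and 27.6% lower, so a call at this threshold was common in this comparison. The only one of the 10 past a log2 fold change of 1 as well was Hmox1, as were 3.45% of all tested genes in the upward direction. The genotypes did not overlap in TMM CPM for 9 of the 10 genes, against 65.6% of all tested genes. The median log2 fold change of the 10 was 0.18, between a lower quartile of -0.33 and an upper quartile of 0.29 for all genes. The 3 mice of each genotype are the replicates, and the p-values set the difference between genotypes against the estimated spread among them.

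**Figure D1:**
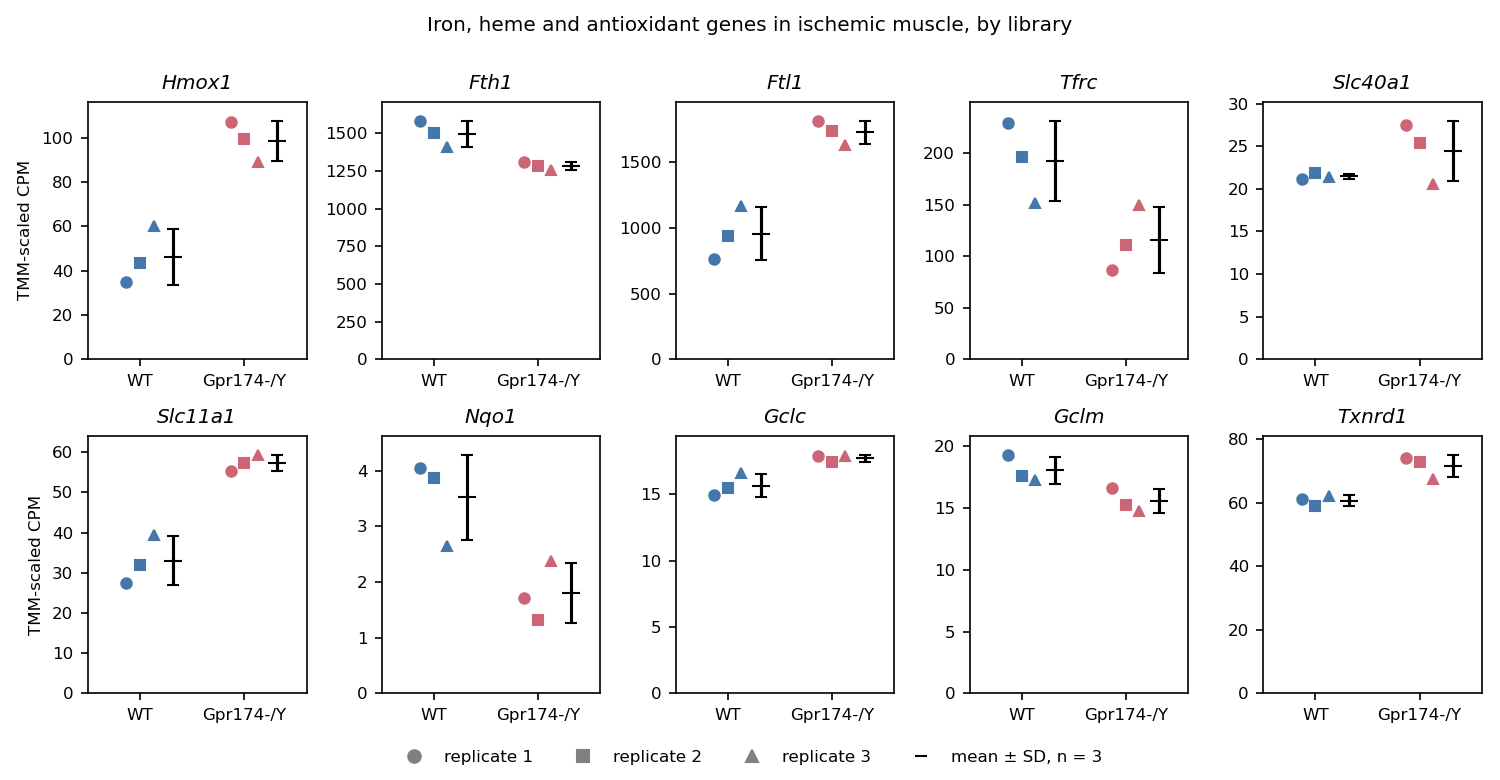
TMM CPM (vertical axes from 0, a separate scale for each gene) of the 10 genes in 3 WT (blue) and 3 Gpr174-/Y (red) muscles, with the mean and SD of each genotype beside the points. The genotypes stand apart for 9 genes, and in Slc40a1 the lowest Gpr174-/Y library, at 20.6, sits below the WT libraries.

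Hmox1 (Entrez gene 15368), the enzyme that opens the heme ring and frees iron, carbon monoxide and biliverdin, rose 2.13-fold in Gpr174-/Y muscle. Its TMM CPM, given here and below in the order of replicates 1, 2 and 3, was 34.9, 43.4 and 60.1 in WT and 107.2, 99.7 and 88.9 in Gpr174-/Y muscle. The lowest Gpr174-/Y library thus lay above the highest WT library, and the WT libraries were the more spread. The log2 fold change was 1.09 (standard error 0.19, 95% interval 0.65 to 1.54, adjusted p = 0.00358), and 1.35 with total-count scaling. It was 0.94 without WT replicate 1, under a log2 fold change of 1 but still past the adjusted p. In transcript length-corrected units Hmox1 went from 52.1 ± 17.1 TPM in WT to 144 ± 8.70 TPM in Gpr174-/Y muscle (SD, n = 3).

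The constitutive heme oxygenase Hmox2, which comes from a separate gene, showed TMM CPM between 54.8 and 56.1 in WT and between 54.3 and 58.1 in Gpr174-/Y muscle, with a log2 fold change of 0.01 (standard error 0.05, adjusted p = 0.868). The ratio of Hmox1 to Hmox2 in TPM was 0.495, 0.628 and 0.857 in the WT libraries and 1.54, 1.37 and 1.30 in the Gpr174-/Y libraries. Hmox1 RNA was thus below that of Hmox2 in each WT muscle and above it in each Gpr174-/Y muscle. Downstream of heme oxygenase, Blvrb, a biliverdin reductase, had a log2 fold change of 0.39 (adjusted p = 0.00610), and Blvra, the other biliverdin reductase, had 0.16 (adjusted p = 0.0797), which did not pass. These 3 genes and the ratio were picked after their values were seen.

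The RNAs of the ferritin chains did not move together. Ftl1 (14325), the light chain that favours deposition of the iron core, rose 1.81-fold, whereas the TMM CPM of Fth1 (14319), the heavy chain that oxidizes iron on entry, changed by a factor of 0.856 without passing the threshold. Ftl1 TMM CPM was 766, 936 and 1164 in WT and 1810, 1735 and 1631 in Gpr174-/Y muscle, so the genotypes did not overlap. Its log2 fold change was 0.85 (standard error 0.16, 95% interval 0.48 to 1.22, adjusted p = 0.00443).

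Fth1 TMM CPM was 1580, 1504 and 1408 in WT and 1306, 1284 and 1256 in Gpr174-/Y muscle. Each Gpr174-/Y library lay below each WT library, with a log2 fold change of -0.22 (standard error 0.08, 95% interval -0.42 to -0.03, adjusted p = 0.0540). That direction belonged to the scaling, since it was 0.05 with library totals (adjusted p = 0.556) and the TPM means were 2862 ± 22.9 in WT and 3216 ± 44.2 in Gpr174-/Y muscle (SD, n = 3). In both scalings Fth1 stood below the median of all genes. It passed the threshold without WT replicate 3 (log2 fold change -0.26, adjusted p = 0.00908), and on all 6 libraries with DESeq2 (-0.22, adjusted p = 0.00510) and limma voom (-0.22, adjusted p = 0.0405).

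A ratio within a library does not depend on the scaling between libraries. Ftl1 over Fth1 in TPM was 0.470, 0.603 and 0.801 in WT and 1.34, 1.31 and 1.26 in Gpr174-/Y muscle, a 2.09-fold higher mean ratio with no overlap. Heavy chain RNA was therefore the more abundant in each WT muscle, and light chain RNA in each Gpr174-/Y muscle. The annotation lists processed copies of both genes, such as Ftl1-ps1 and Fth-ps2, that have no entry of their own in the deposited table, so the share of ferritin reads from near-identical copies is unknown. The ratios here and below, 8 in all, were picked after their values were seen and carry no test.

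**Figure D2:**
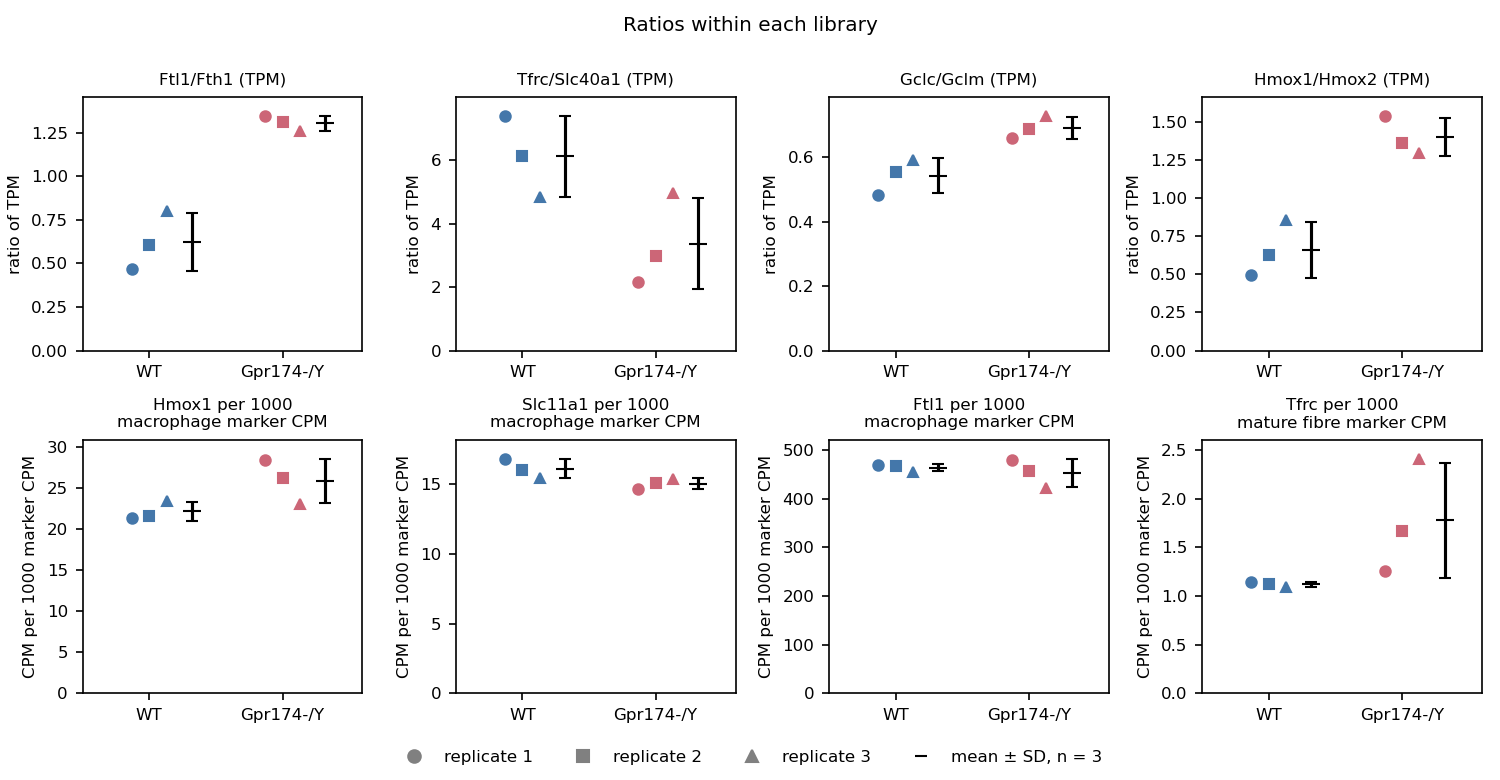
Ratios within each library (vertical axes from 0) for 4 gene pairs in TPM and for 4 comparisons of a gene with summed cell type markers in TMM CPM, in 3 WT (blue) and 3 Gpr174-/Y (red) muscles with mean and SD. Ftl1/Fth1 stands at 0.801 or below in WT and at 1.26 or above in Gpr174-/Y muscle, whereas Ftl1 per 1000 macrophage marker CPM overlaps between genotypes.

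Of the iron transporters, Tfrc fell and Slc11a1 rose, and Slc40a1 did not pass. Tfrc (22042), the receptor for transferrin-bound iron, had TMM CPM of 229, 196 and 151.5 in WT and 86.9, 110.4 and 149.7 in Gpr174-/Y muscle. The libraries numbered 3 nearly met, and the others stood well apart. Before scaling the genotypes overlapped, with raw counts of 3685, 3298 and 2696 in WT and 1819, 2344 and 3218 in Gpr174-/Y muscle. The TPM ranges overlapped too, at 56.1 to 76.8 in WT and 38.8 to 71.4 in Gpr174-/Y. The log2 fold change was -0.73 (standard error 0.22, 95% interval -1.27 to -0.20, adjusted p = 0.0291). The call was lost with total-count scaling (log2 fold change -0.45, adjusted p = 0.112) and when either replicate 1 or either replicate 2 was left out (adjusted p = 0.0698 without WT replicate 1, 0.0859 without WT replicate 2, 0.0798 without Gpr174-/Y replicate 1 and 0.0895 without Gpr174-/Y replicate 2).

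Slc40a1 (53945), the iron exporter, had TMM CPM of 21.2, 21.8 and 21.4 in WT and 27.5, 25.4 and 20.6 in Gpr174-/Y muscle. Gpr174-/Y replicate 3 lay below the WT libraries, and the log2 fold change of 0.19 had a 95% interval of -0.07 to 0.44 (adjusted p = 0.175). Slc40a1 passed with total-count scaling (log2 fold change 0.46, adjusted p = 0.00704), where the median of all genes was 0.277. It also passed without Gpr174-/Y replicate 3 (0.30, adjusted p = 0.0159). The ratio of import to export, Tfrc over Slc40a1 in TPM, was 7.39, 6.15 and 4.84 in WT and 2.17, 2.98 and 4.96 in Gpr174-/Y muscle. Replicates 1 and 2 differed between genotypes and the replicates numbered 3 did not, so the groups overlapped.

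Slc11a1 (18173), a divalent metal transporter of the macrophage phagosome, rose 1.73-fold. Its TMM CPM was 27.4, 32.0 and 39.5 in WT and 55.3, 57.2 and 59.3 in Gpr174-/Y muscle. The genotypes did not overlap, and the log2 fold change of 0.79 (standard error 0.12, 95% interval 0.50 to 1.09, adjusted p = 0.00257) was the one with the smallest adjusted p among the 10 genes.

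The NRF2 targets outside the iron genes did not move together. Txnrd1 (50493), cytosolic thioredoxin reductase, rose 1.18-fold, and Gclc (14629), the catalytic subunit of the enzyme that limits glutathione synthesis, rose 1.13-fold. In contrast Gclm (14630), the modifier subunit of the same enzyme, and Nqo1 (18104), NADPH quinone dehydrogenase 1 and a widely used NRF2 reporter, were lower in Gpr174-/Y muscle.

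Txnrd1 TMM CPM was 61.2, 58.9 and 62.1 in WT and 74.2, 72.9 and 67.6 in Gpr174-/Y muscle, with no overlap and a log2 fold change of 0.24 (standard error 0.06, adjusted p = 0.0102, or 0.0524 without Gpr174-/Y replicate 2). Gclc was 14.9, 15.5 and 16.6 in WT and 17.9, 17.4 and 17.9 in Gpr174-/Y muscle (log2 fold change 0.18, standard error 0.06, adjusted p = 0.0462). Gclm was 19.3, 17.6 and 17.3 in WT and 16.6, 15.2 and 14.7 in Gpr174-/Y muscle (log2 fold change -0.22, standard error 0.08, adjusted p = 0.0470). The calls for Gclc and Gclm sat just inside the threshold, and Gclm turned to 0.06 with total-count scaling (adjusted p = 0.446) and was read there as below the median of all genes. DESeq2 called neither (adjusted p = 0.220 for Gclc and 0.153 for Gclm). Leaving out any library other than WT replicate 3 lost the Gclc call, with adjusted p from 0.0968 to 0.139. For Gclm the call was lost without WT replicate 1, WT replicate 2, Gpr174-/Y replicate 2 or Gpr174-/Y replicate 3, with adjusted p from 0.101 to 0.151. The ratio of Gclc to Gclm in TPM, free of that scaling, was 0.482, 0.554 and 0.591 in WT and 0.660, 0.686 and 0.728 in Gpr174-/Y muscle, so the catalytic subunit stood higher against the modifier subunit in each Gpr174-/Y library.

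Nqo1 was the lowest of the 10 in level, with 65, 65 and 47 counts in WT and 36, 28 and 51 in Gpr174-/Y muscle. After TMM scaling these were 4.05, 3.87 and 2.64 CPM against 1.72, 1.32 and 2.37 CPM, with WT replicate 3 and Gpr174-/Y replicate 3 close together. The log2 fold change was -0.96 (standard error 0.26, 95% interval -1.56 to -0.35, adjusted p = 0.0182). The raw counts of the genotypes overlapped, and the call was lost without WT replicate 2, Gpr174-/Y replicate 1 or Gpr174-/Y replicate 2, with adjusted p from 0.0604 to 0.0719. The summed counts of 177 in WT and 115 in Gpr174-/Y had exact Poisson 95% intervals of 152 to 205 and 95 to 138, which cover counting error only.

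**Figure D3:**
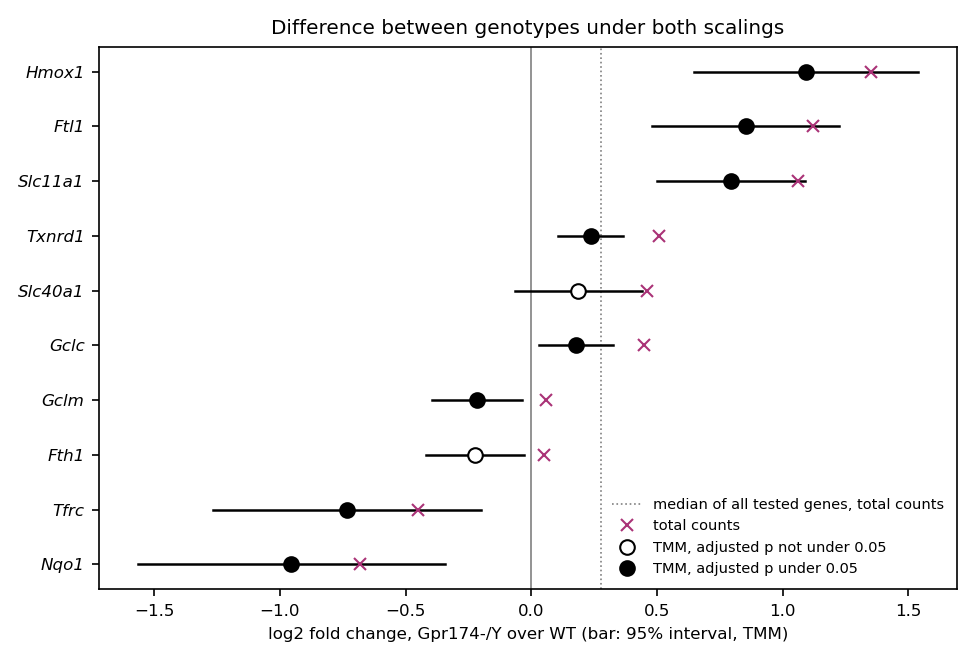
Log2 fold change of Gpr174-/Y over WT (horizontal axis) for the 10 genes, as TMM-scaled values with 95% intervals (circles, filled where the adjusted p was under 0.05) and with total-count scaling (crosses), beside the median of all tested genes under total counts (dotted line, 0.277). The crosses of Fth1 and Gclm fall on the other side of 0 from their circles, and Hmox1, Ftl1 and Slc11a1 stay to the right of the dotted line on both scales.

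The order of the genes by level differed between genotypes. In WT muscle the mean TPM ran from Fth1 (2862) and Ftl1 (1786) through Tfrc (67.1), Hmox1 (52.1), Txnrd1 (31.1), Slc11a1 (24.5), Gclm (15.4), Slc40a1 (11.0) and Gclc (8.33) to Nqo1 (3.97). The ranges of Tfrc and Hmox1 overlapped, as did those of Txnrd1 and Slc11a1, and the other neighbours were separate. In Gpr174-/Y muscle the order was Ftl1 (4193), Fth1 (3216), Hmox1 (144), Slc11a1 (55.4), Tfrc (53.6), Txnrd1 (47.6), Gclm (17.8), Slc40a1 (16.4), Gclc (12.3) and Nqo1 (2.70). There Slc11a1 overlapped Tfrc, Tfrc overlapped Txnrd1, and Gclm overlapped Slc40a1. The ferritin chains changed places at the top, and Hmox1 and Slc11a1 stood above Tfrc in mean level only in Gpr174-/Y muscle.

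Hmox1, Fth1, Ftl1 and Nqo1 each have 1 transcript in the table, so their values do not rest on a split of reads between isoforms. Txnrd1 has 4, and its main transcript had estimated counts of 550, 551 and 671 in WT and 1399, 1276 and 963 in Gpr174-/Y muscle. The next had 396, 335 and 326 in WT and 1.75, 138 and 369 in Gpr174-/Y muscle. The gene total of Txnrd1 was far steadier than either transcript, whose split was estimated from shared reads, and the transcripts were not tested.

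Bulk muscle holds many cell types, and fewer cells of a type cannot be told apart from less RNA per cell. By flow cytometry of ischemic gastrocnemius at the same day, the paper reported similar total macrophage and neutrophil infiltration in both genotypes, with a shift between macrophage subsets. Of the 12 tested macrophage markers 11 were higher in Gpr174-/Y muscle, with a summed level of 1634 to 2558 TMM CPM in WT and 3773 to 3859 in Gpr174-/Y. The defining markers Adgre1 and C1qa were among them, at log2 fold changes of 0.84 and 0.69 (adjusted p = 0.00580 and 0.0369), and only Marco and Timd4 of the 14 listed were removed by the filter. Hmox1 per 1000 TMM CPM of macrophage markers was 21.4, 21.7 and 23.5 in WT and 28.4, 26.2 and 23.0 in Gpr174-/Y muscle, which overlap. Ftl1 on the same base was 469, 466 and 455 against 479.8, 456 and 423, which also overlap. Slc11a1 was 16.8, 16.0 and 15.4 against 14.7, 15.0 and 15.4, with no Gpr174-/Y library above a WT library. Set against macrophage markers, the 3 genes with the greatest rises differed by factors of 1.17, 0.977 and 0.935. Against the whole library the factors were 2.13, 1.81 and 1.73. Because the marker sum itself rose, any gene with a rise of similar size has nearly the same ratio in both genotypes, whatever its source. Summed fibroblast markers rose too, with no overlap between genotypes, and no ratio to them was made. By level that sum was mostly collagen RNA, with WT means of 6460 for Col1a1, 4076 for Col1a2 and 6529 for Col3a1. The next marker, Dcn, was at 822 TMM CPM in WT and was lower in Gpr174-/Y muscle, as were Lum and Pdgfra. In replicate order the Gpr174-/Y levels of fibroblast markers fell, as did those of Hmox1 and Ftl1. Those of macrophage markers and Slc11a1 rose in that order, the macrophage markers only from 1.83 to 1.87 times the WT mean. In WT muscle the levels of all 3 genes and of both marker sums rose in replicate order. The part of macrophage or fibroblast RNA in the rises of the 3 genes was not tested.

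All 16 mature muscle fibre markers were lower in Gpr174-/Y muscle, among them Mb, the heme protein myoglobin, with a log2 fold change of -2.02 (standard error 0.08, adjusted p = 2.37e-04). Together they made up 17.5%, 15.8% and 13.2% of WT counts and 7.48%, 7.28% and 6.96% of Gpr174-/Y counts. The median log2 fold change of the 16 markers was -1.44, against -0.73 for Tfrc. Per 1000 TMM CPM of fibre markers Tfrc was 1.15, 1.12 and 1.09 in WT and 1.25, 1.66 and 2.41 in Gpr174-/Y muscle, a higher ratio in each Gpr174-/Y library. Because the fibre marker sum fell to 0.363 to 0.405 of its WT mean, any gene that fell less, or did not change, also has a higher ratio. Of 10 markers of regenerating fibres 7 were higher, and each of those 7 was separate between genotypes. The summed TMM CPM of all 10, 6701 to 8746 in WT and 7926 to 9804 in Gpr174-/Y, overlapped. By level that sum was mostly Actc1, Myh8 and Myh3, at WT means of 3801, 2161 and 1104, which did not pass.

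Red blood cells are another source of heme, and the summed RNA of their markers overlapped between genotypes. None of 5 tested red blood cell markers passed the edgeR test at an adjusted p under 0.05, and their summed TMM CPM was 185.6 to 281.6 in WT and 152.8 to 440.3 in Gpr174-/Y muscle. Of 10 endothelial markers 9 were lower and Vwf was higher. Of 8 fibroblast markers 4 were higher, Col1a1, Col1a2, Col3a1 and Thy1, and 3 were lower. The lower ones were Lum at -0.81, Dcn at -0.57 and Pdgfra at -0.21. Only Pdgfra was smaller in size than the median of 0.277 that all genes took with total-count scaling. Of 3 tested neutrophil markers Csf3r and Mmp8 were higher and Cxcr2 was lower, and none of 6 tested T cell markers passed. The hepatocyte markers in the table, included since liver makes haptoglobin and other plasma proteins, were all removed by the filter. The part of these cell types in the results was not tested.

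**Figure D4:**
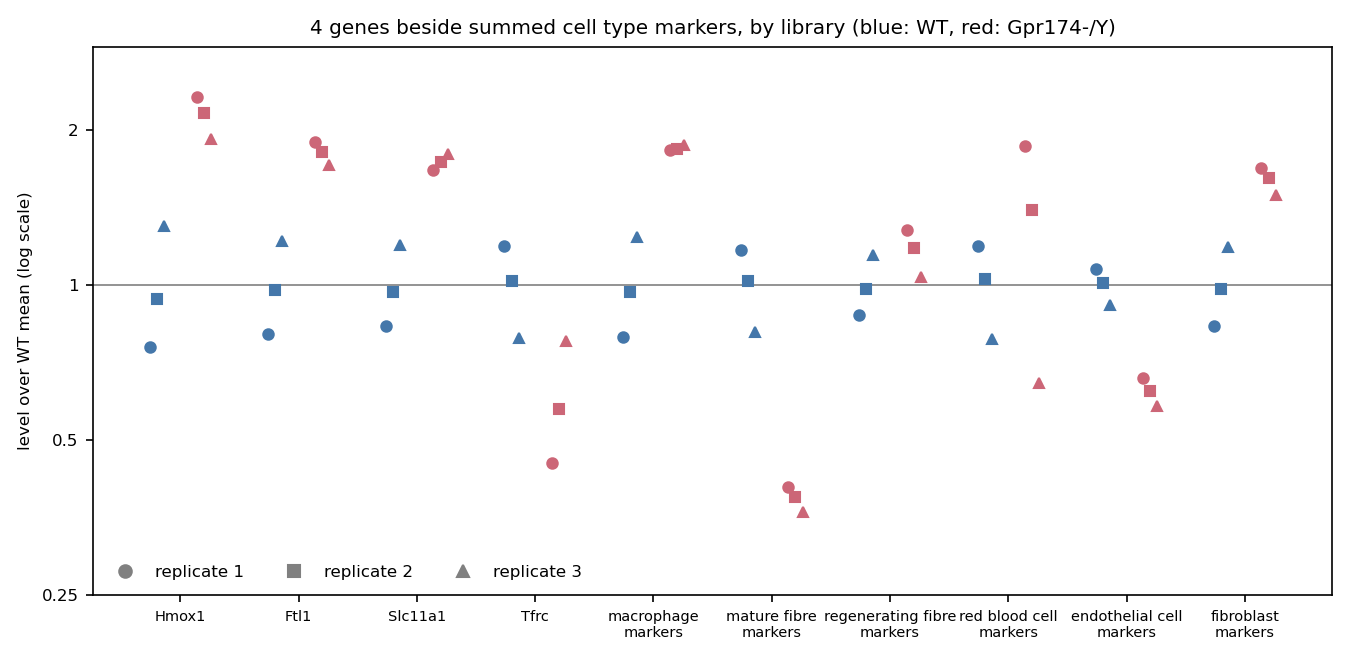
Level of 4 genes and of 6 summed marker lists in each library relative to the WT mean (vertical axis, log scale), in WT (blue) and Gpr174-/Y (red) muscle. Hmox1, Ftl1 and Slc11a1 lie at 1.68 to 2.32 times the WT mean in the Gpr174-/Y libraries. Macrophage markers lie at 1.83 to 1.87 there, fibroblast markers, by level mostly collagen RNA, at 1.499 to 1.688 and mature fibre markers at 0.363 to 0.405.

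The profile of Hmox1 over the 6 libraries was nearest to those of Rab20, Lrrc17, Cx3cr1, Basp1 and Bst1 among 13636 genes, with root mean square distances of 0.013 to 0.044 in centred log2(CPM + 0.1). Cx3cr1 is a chemokine receptor of monocytes and macrophages, and Rab20 a small GTPase of phagosomes. Lrrc17, which lay nearer than Cx3cr1, was not assigned to a cell type here, nor were Basp1 and Bst1. The cell source of the nearest profiles was not tested. Of the other 9 genes Ftl1 came nearest, at rank 198, followed by Slc11a1 at rank 515 and Txnrd1 at rank 3810. The 6 points share 2 genotypes, so the distance mostly ranks genes by the size of the genotype difference and by the order of libraries within each genotype.

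The wider lists held genes that rose and genes that fell. Of 19 tested genes of heme handling 6 were higher and 7 lower in Gpr174-/Y muscle (median log2 fold change -0.05). Among enzymes of heme synthesis Alas1, the first and limiting one, was at -0.71 and Fech, which inserts the iron, at -0.50 (standard errors 0.08 and 0.10, adjusted p = 0.00104 and 0.00681). Among genes that capture released hemoglobin and heme, haptoglobin (Hp) was at 1.33 and the hemopexin receptor Lrp1 at 0.79 (standard errors 0.16 and 0.11, adjusted p = 0.00120 and 0.00175). Cd163, the receptor for haptoglobin-bound hemoglobin and a marker of a macrophage subset, was at -0.31 and did not pass (adjusted p = 0.265). Flvcr2, a membrane transporter first described for heme, was at -1.36 (adjusted p = 0.00267).

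Among 26 tested genes of iron transport, storage and regulation 8 were higher and 9 lower (median 0.02). Lcn2, which binds siderophores, was at 1.79, Tfr2, the second transferrin receptor, at 1.23, and Steap2, an iron reductase, at 0.99 (adjusted p = 0.00175, 0.0122 and 0.00134). Lcn2 and Tfr2 were low, at 0.436 to 0.899 and 0.498 to 1.29 TMM CPM in WT libraries. Those that fell most were Hjv, the hemojuvelin gene of muscle and liver, at -1.21, and the iron-sulfur cluster assembly genes Nfs1 at -0.89 and Iscu at -0.67 (adjusted p = 0.00288, 0.00196 and 0.00163). Fibre markers fell beside these genes of mitochondria and muscle, and their part was not tested.

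The genes that act through the iron-responsive element or on ferritin differed little with TMM scaling. Ireb2, an iron regulatory protein, did not pass (0.11, adjusted p = 0.131), although it did with total-count scaling (0.38, adjusted p = 0.00193). Aco1, the other iron regulatory protein, was at 0.17 (adjusted p = 0.0350) and at 0.44 with total-count scaling (adjusted p = 0.00202). The median of all genes with total-count scaling was 0.277. The Aco1 call was lost with DESeq2 (adjusted p = 0.125) and without WT replicate 1, WT replicate 2, Gpr174-/Y replicate 1 or Gpr174-/Y replicate 2, with adjusted p from 0.0615 to 0.140. Fbxl5, which targets IREB2 for degradation, was at -0.19 (adjusted p = 0.0302) and at 0.08 with total-count scaling. Its call was lost with DESeq2 (adjusted p = 0.0809) and without WT replicate 1, WT replicate 2, Gpr174-/Y replicate 2 or Gpr174-/Y replicate 3, with adjusted p from 0.0589 to 0.101. Ncoa4, the receptor that delivers ferritin to lysosomes, was at 0.21 (adjusted p = 0.00749). The protein activity of the iron regulatory proteins was not measured.

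Of 25 tested NRF2 regulators and other NRF2 targets 7 were higher and 7 lower (median -0.05). The RNA of NRF2 itself (Nfe2l2) rose by 0.41 log2 units (standard error 0.05, adjusted p = 0.00103), from 78.9, 80.9 and 82.4 TMM CPM in WT to 108.1, 107.4 and 106.8 in Gpr174-/Y muscle. Keap1 was at -0.34 (adjusted p = 0.00210), but with total-count scaling it was at -0.06 and did not pass (adjusted p = 0.247). On that scale it still lay below the 0.277 median of all genes. Bach1, the repressor of Hmox1, rose by 0.81 log2 units (standard error 0.09, adjusted p = 0.00120), from 37.3, 40.0 and 46.5 TMM CPM in WT to 68.4, 70.4 and 77.9 in Gpr174-/Y muscle. The RNAs of the activator and of the repressor of Hmox1 were thus both higher, with no overlap between genotypes. The protein activity of NRF2 and BACH1 was not measured.

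Among targets of NRF2, G6pdx and Tkt of the pentose phosphate pathway, which makes NADPH, were higher at 0.77 and 0.67, as was the small partner protein gene Maff at 0.73 (adjusted p = 0.00209, 0.00266 and 0.00216). The glutathione S-transferase genes Gsta4 and Gstm1 were lower at -1.22 and -0.57, as was Me1, cytosolic malic enzyme, at -1.07 (adjusted p = 0.00689, 0.00591 and 0.00979). Slc7a11, the cystine importer, had the greatest log2 fold change of the list, 1.76 (adjusted p = 0.00265), at 0.187 to 0.357 TMM CPM in WT and 0.908 to 1.16 in Gpr174-/Y libraries. It is named after its values were seen, since it lay under the mean of 1 CPM asked of the others.

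Of the 23 other antioxidant enzymes 12 were lower and 8 higher (median -0.25). With total-count scaling the median of the list was 0.02, still below the 0.277 of all genes. Mitochondrial superoxide dismutase Sod2 was at -0.99, and the selenoprotein genes Selenow and Msrb1 were at -0.93 and -0.84 (adjusted p = 0.00108, 0.00139 and 0.00437). Extracellular superoxide dismutase Sod3 rose by 0.73, Gpx7 of the endoplasmic reticulum by 0.62 and metallothionein Mt2 by 0.60 (adjusted p = 6.20e-04, 0.00325 and 0.0289). The Mt2 call was lost without WT replicate 1, WT replicate 2, Gpr174-/Y replicate 2 or Gpr174-/Y replicate 3, with adjusted p from 0.0557 to 0.0921. With total-count scaling the calls became 9 higher and 6 lower here, 10 and 5 for heme handling, 15 and 3 for iron, and 13 and 3 for NRF2, while 78.4% of all calls were then higher.

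**Figure D5:**
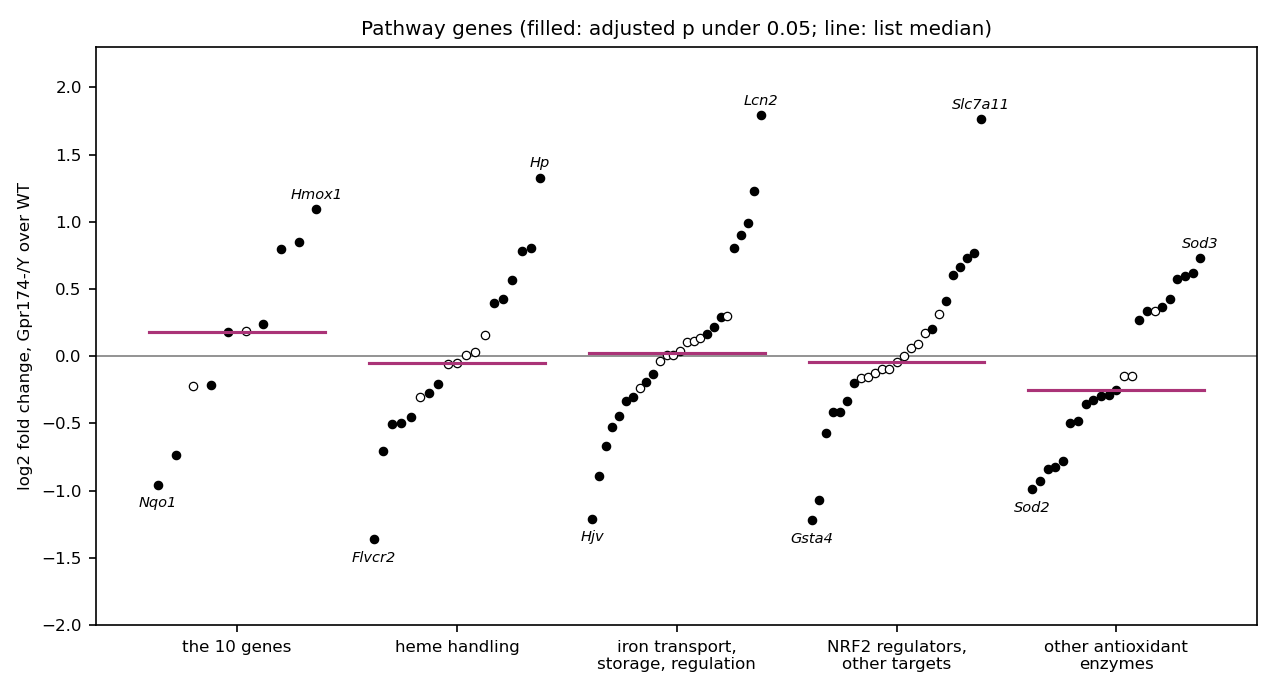
Log2 fold change of Gpr174-/Y over WT (vertical axis, TMM scaling) for the 10 genes and for each tested gene of 4 pathway lists, filled where the adjusted p was under 0.05, with a line at each median. Each list spreads to both sides of 0, and the medians lie between -0.25 for other antioxidant enzymes and 0.18 for the 10 genes.

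The antioxidant response element is the DNA motif of NRF2 and BACH1, and its core TGACNNNGC was searched for on both strands of RefSeq promoter windows (build GRCm38.p6, 250 bases before to 50 after each start). Windows were given for 7 of the 10 genes, 11 windows in all, and 2 held the core, as did 12.4% of all 32851 windows. The known enhancers of Hmox1 lie outside so short a window, and Hmox1, Slc40a1 and Gclc had none. The 2 matches are shown with the core, read on the opposite strand, in capitals, because they belong to NRF2 targets that differed in direction between genotypes with TMM scaling:

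Gclm, chr3:122245413-122245441, plus strand: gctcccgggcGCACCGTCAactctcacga

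Txnrd1, chr10:82859104-82859132, plus strand: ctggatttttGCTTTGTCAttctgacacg

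The core began 134 bases before the start in Gclm, and 92 bases before a start of Txnrd1.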

How the data were processed

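Total RNA of 3 WT and 3 Gpr174-/Y ischemic muscles was sequenced on BGISEQ-500 per the methods, while the labels name an Illumina kit. The submitters' processing notes list HISAT2 2.0.4, Bowtie2 2.2.5, RSEM 1.2.12 and GRCm39, without roles, and the use of strand is not given in the sources used here. The authors deposited estimated counts for 58843 RefSeq transcripts, which need not be whole and are not normalized, and also FPKM, scaled to transcript length and depth, and TPM for the same libraries. Per-group means were not used, and 0 per-sample columns were left unmapped.

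Expected counts were summed by Entrez gene, rounded, and named through RefSeq (99.7% of genes). Total counts were 18417077 to 19394469 per library, and 3 counts corresponded to 0.155 to 0.163 CPM. Genes were compared with edgeR 4.0.16 (TMM, its low-count filter, robust quasi-likelihood F-test, Benjamini-Hochberg over 14395 genes) in R 4.3.3, at an adjusted p of 0.05. The standard error was the log2 fold change over the square root of F. TPM was summed per gene and used for levels between genes and for ratios. The fit was tested on simulated data. Lists of genes were described by counts and medians, with no test of a list.

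The members and lists were chosen with earlier results of these data known. Named list genes are 7 regulators and, per list, the 3 largest rises and falls among genes past the threshold averaging 1 CPM or more, and for Hmox1 the 5 nearest profiles. Hmox2, Blvra, Blvrb, Cd163, Slc7a11, the named markers and the 8 ratios were picked after their values were seen. Alternatives were DESeq2 1.42.0, upper-quartile and total-count scaling, no low-count filter, a minimum of 10 counts per library, limma 3.58.1 (voom, and log2 of FPKM plus 1 or plus 0.1 where 3 libraries reached an FPKM of 1), a replicate block, leaving out each library, and replicates 1 and 3 only. Sequences are from GENCODE M21 on GRCm38 and from RefSeq on GRCm38.p6, and no coordinates were converted.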

Additional observations from a re-analysis of the deposited data

How the results depend on the processing

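Against 8 of the 10 genes called by edgeR, DESeq2, upper-quartile scaling, total-count scaling and both FPKM fits called 7 (DESeq2 gained Fth1 and lost Gclc and Gclm), no filter called 6, at least 10 counts in every library called 8 and limma voom called 9. Leaving out 1 library gave from 3 (without Gpr174-/Y replicate 2) to 9 (without WT replicate 3) of the 10, and from 48 (without WT replicate 2) to 68 (without WT replicate 3) of the pathway list genes. Replicates 1 and 3 alone gave 0 of the 10 genes and 0 of the pathway list genes, against 64 in all libraries. No other subset of that size was fitted, so the smaller number of samples and the loss of replicate 2 cannot be told apart. The same-numbered libraries came from different mice, and their deviations correlated at 0.0091, 0.00837 and -0.0231, so the numbers were not taken as pairs, and a fit with a replicate block called 5, losing Tfrc (adjusted p = 0.0857), Gclc (0.0821) and Nqo1 (0.0598). Hmox1, Ftl1 and Slc11a1 kept direction and call in 15 of 16 alternatives, with adjusted p of 0.0752, 0.0895 and 0.0642 with replicates 1 and 3 alone. Directions reversed with total-count scaling, log2(FPKM + 1) and log2(FPKM + 0.1) for Fth1 (0.051, 0.051 and 0.051), Gclm (0.059, 0.084 and 0.092) and Fbxl5 (0.083, 0.078 and 0.082), where the median of all genes was 0.277 under total counts. Hmox1 was the 1 gene of the 10 past a log2 fold change of 1 as well, with 3 such genes under total counts, both FPKM fits and without WT replicate 3. Depth limits Nqo1, with 28 to 65 counts per library.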
